A study of Mus musculus with 27 samples.

Results

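The transport of glutamate in developing mouse retina was followed through 6 genes, 3 that encode vesicular glutamate transporters (Slc17a7, Slc17a6 and Slc17a8, for VGLUT1, VGLUT2 and VGLUT3) and 3 that encode plasma membrane glutamate transporters (Slc1a1, Slc1a2 and Slc1a7, for EAAT3, EAAT2 and EAAT5). The genes were taken by symbol from the 38168 features of the expression table, and where a symbol had more than 1 entry the entry with the highest mean level was used. This applied to Slc1a2, whose second entry had a mean of 1.81 cpm (reads of a feature scaled to the reads of its library) against 646 cpm for the entry used.

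Whole retinas of wild type C57BL/6J mice, with no drug or gene alteration named and collected in the light phase of the day, were profiled by RNA-seq of total RNA in 27 libraries at 7 ages. There were 3 libraries at E14, 3 at E17, 4 at P1, 3 at P6, 4 at P15, 4 at P28 and 6 at P60, where E counts embryonic days and P postnatal days. The libraries are separate pools of animals, except that at P60 2 were pools and 4 were single mice, and which library is which is not stated. Retinas up to P1 came from both sexes and later ones from males, so that sex and age cannot be told apart between the younger and the older groups. Libraries held 7076646 to 11330762 reads counted to features (median 7968785). These were recovered from the deposited values and are fewer than the reads sequenced. Thus 1 read was worth 0.0882 to 0.141 cpm and a count of 0 allows up to 3 reads, or 0.265 to 0.424 cpm (counting error only).

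Photoreceptors and bipolar cells of the retina release glutamate tonically from ribbon synapses and ganglion cells release it from their axon terminals in the brain. Vesicular transporters load glutamate into synaptic vesicles, using the proton gradient made by the vesicular proton pump, and the type of VGLUT differs between cell classes. VGLUT1 is used by photoreceptors and bipolar cells, VGLUT2 by ganglion cells and VGLUT3 by a small class of amacrine cells. Excitatory amino acid transporters (EAATs) then remove glutamate from the cleft by cotransport with sodium. EAAT1 (Slc1a3) serves Müller glia, EAAT2 is found in cones and bipolar cells, EAAT3 in inner retinal neurons, and EAAT5, which also carries a large chloride current, in terminals of photoreceptors and rod bipolar cells.

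The summed level of 5 rod markers (Gnat1, Pde6a, Pde6b, Nrl and Sag) ran from 13.05 to 17.8 cpm in embryonic libraries and from 8328 to 13026 cpm at P15 to P60. That of 6 progenitor markers (Ccnd1, Mki67, Top2a, Sfrp2, Fgf15 and Hes5) fell to 18.3 to 33.5 cpm over the latter ages. Of tissues beside the neural retina, lens and skeletal muscle markers summed to at most 7.97 and 6.46 cpm in any library and blood markers to at most 50.3 cpm, reached at P6. Retinal pigment epithelium markers (Rpe65, Rgr, Ttr, Best1 and Lrat) summed to 1.94 to 4.60 cpm in embryonic libraries and to 19.2 to 90.6 cpm at P15 to P60, and 4 of the 5 were called higher in mature retina. Their part in the results below was not tested. In whole tissue, fewer cells of a type and less RNA per cell cannot be told apart.

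On the GRCm38 build, Slc17a6 lies on chromosome 7 at 51622006 to 51671119 and Slc17a7 on the same chromosome at 45163949 to 45176142, both on the plus strand. Slc17a8 is on the minus strand of chromosome 10 at 89574020 to 89621253. The 3 uptake genes are all on plus strands, Slc1a1 on chromosome 19 at 28835049 to 28913960, Slc1a2 on chromosome 2 at 102658659 to 102790784 and Slc1a7 on chromosome 4 at 107968332 to 108013532. Slc1a1 shares 2631 of its 8257 exonic bases with 4430402I18Rik, a gene on the opposite strand, and Slc1a2 shares 189 of 13133 with the antisense gene Gm13872. Whether reads were counted by strand is not given in the sources used here, so reads of these exons cannot be assigned to 1 gene with certainty.

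The 250 bases before the annotated starts of Slc17a7 and Slc17a6 are shown because the order of these genes inverted during development, and those before the second start of Slc17a8 because they hold the only other match to a motif searched. Sequences are from RefSeq on GRCm38.p6, in the direction of transcription, and capitals mark TAATTA, a core bound by many homeodomain factors.
Slc17a7, chr7:45163671-45163920: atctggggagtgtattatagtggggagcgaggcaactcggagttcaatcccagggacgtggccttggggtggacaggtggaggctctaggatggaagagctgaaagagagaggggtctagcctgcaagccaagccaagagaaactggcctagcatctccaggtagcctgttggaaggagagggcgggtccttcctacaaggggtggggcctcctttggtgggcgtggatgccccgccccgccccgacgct
Slc17a6, first start, chr7:51621580-51621829: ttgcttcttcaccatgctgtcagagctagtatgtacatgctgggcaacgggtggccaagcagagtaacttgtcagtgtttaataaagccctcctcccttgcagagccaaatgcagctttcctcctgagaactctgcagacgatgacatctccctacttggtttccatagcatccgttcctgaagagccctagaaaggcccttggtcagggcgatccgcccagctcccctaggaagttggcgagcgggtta
Slc17a6, second start, chr7:51624387-51624636: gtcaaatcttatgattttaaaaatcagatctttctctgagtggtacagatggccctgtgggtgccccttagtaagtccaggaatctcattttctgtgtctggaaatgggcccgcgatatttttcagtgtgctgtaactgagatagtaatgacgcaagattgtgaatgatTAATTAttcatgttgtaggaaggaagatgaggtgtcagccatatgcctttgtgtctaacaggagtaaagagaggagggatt
Slc17a8, second start, chr10:89599816-89600065: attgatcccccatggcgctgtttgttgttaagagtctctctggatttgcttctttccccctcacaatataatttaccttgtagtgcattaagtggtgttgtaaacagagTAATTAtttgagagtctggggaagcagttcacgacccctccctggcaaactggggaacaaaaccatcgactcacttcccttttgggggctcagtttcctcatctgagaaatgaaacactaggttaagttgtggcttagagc
TAATCC (the core bound by CRX and OTX2), AGGTCA (a nuclear receptor half-site) and TAATTA were searched on both strands of the 8 windows that matched the 6 genes. TAATTA occurred in 2 windows, those of the second starts of Slc17a6 and Slc17a8, and the other motifs in none. Over 32851 promoter windows of the same length, TAATCC occurred in 6.25%, AGGTCA in 14% and TAATTA in 4.84%. A match describes letters only.

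Mature retina (P15, P28 and P60, 14 libraries) was compared with embryonic retina (E14 and E17, 6 libraries) to ask which transporter genes differed once the retina had matured. Tests are from limma on log2(cpm + 1) unless another is named, and this scale understates the change of low genes. Their p-values were adjusted over the 31760 features tested, and a gene was called at an adjusted p under 0.05. Of the 6 genes, 5 were higher in mature retina and 0 lower, against 35% of all features higher and 40.4% lower. When the log2 fold change also had to reach 1 in size, 5 genes were again called higher, against 14.9% of all features higher and 16.1% lower. The median log2 fold change was 3.10 for the 6 genes and -0.065 for all features. The gene that did not pass was Slc17a6, with a log2 fold change of 0.10 (SE 0.0952, adjusted p = 0.37). All 6 genes differed among the 7 ages, the weakest being Slc17a6 (adjusted p = 2.6e-06, limma F test).

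**Figure D1:**
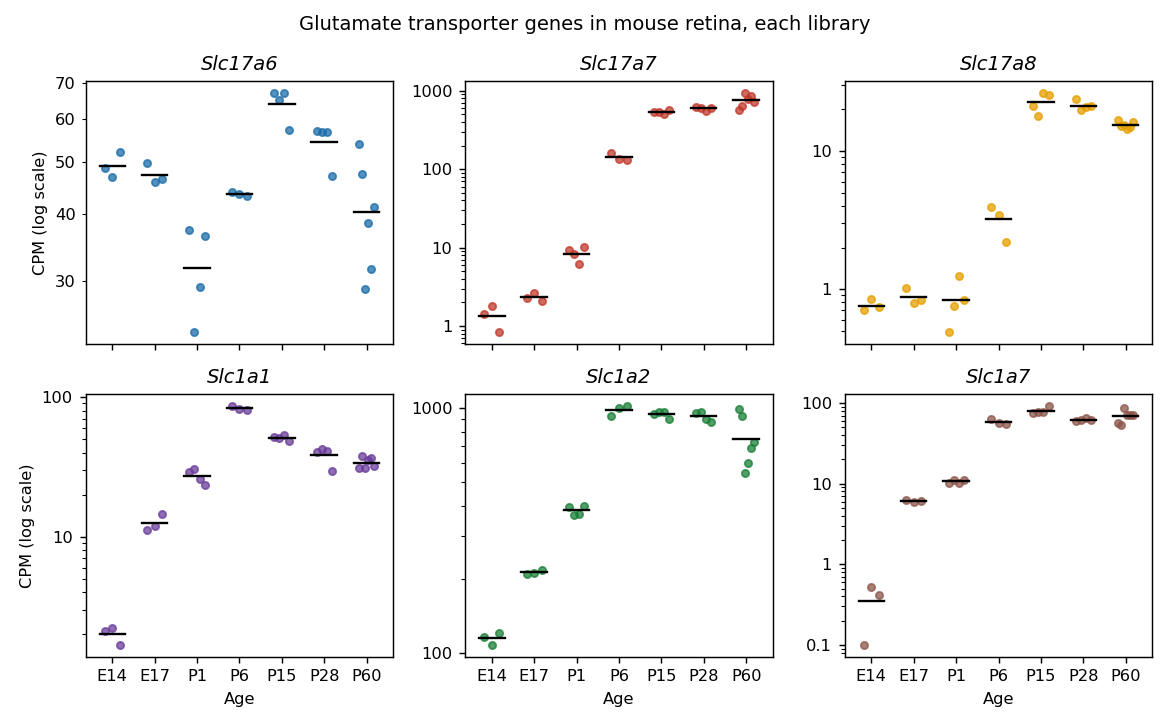
Level of each transporter gene in cpm (log axis, a separate range in each panel) in every library against age, with points for libraries and a black line for the mean of an age. Slc17a6 stayed between 24.2 and 67.1 cpm at all ages, whereas Slc17a7 went from under 2 cpm at E14 to at least 511.6 cpm from P15 on.

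Slc17a7 (VGLUT1) had the largest change of the 6 genes. It measured 0.842, 1.40 and 1.79 cpm in the E14 libraries (8 to 17 reads) and 2.07, 2.25 and 2.65 cpm at E17 (20 to 30 reads). At P1 it measured 6.11, 8.19, 9.20 and 10.1 cpm, and at P6 129, 133 and 162 cpm. The libraries of these 4 ages did not overlap between any age and the next. At P15 the levels were 512, 533, 541 and 572 cpm, at P28 555, 598, 598 and 623 cpm, and at P60 569.6 to 935 cpm with a median of 749 cpm. The P15 libraries all lay above those of P6, and the 3 oldest ages overlapped. The mean was 342.5-fold higher in mature than in embryonic retina (log2 fold change 7.81, SE 0.0923, adjusted p = 9.1e-35). The largest single step was from P1 to P6, where the mean rose from 8.39 ± 1.70 (SD, n = 4) to 141 ± 17.6 cpm (n = 3), 16.9-fold, with a log2 fold change of 3.94 (SE 0.144, adjusted p = 2.5e-20 by limma). It rose again by 3.82-fold to P15 (log2 fold change 1.93, adjusted p = 2.9e-12) and had risen by 3.61-fold from E17 to P1 (1.48, adjusted p = 4.8e-09).

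The first step of Slc17a7, E17 over E14, was 0.52 on the log2 scale (adjusted p = 0.023, limma) and depended on single libraries. It was not called without E14 replicate 3, E17 replicate 1 or E17 replicate 2 (adjusted p 0.22, 0.055 and 0.12), nor with edgeR on recovered reads (0.19, and 0.29 without E14 replicate 1), median-of-ratios scaling (0.071) or a fit of the compared ages alone (0.087), and a pseudocount of 0.1 raised the log2 fold change to 0.80. Beside the gene, the 5 rod markers summed to 100.4 to 108 cpm at P1, 1626 to 1994 cpm at P6 and 8328 to 8759.5 cpm at P15, and 5 bipolar cell markers (Grm6, Trpm1, Cabp5, Prkca and Pcp2) to 77.6 to 85.5, 511 to 719 and 1525 to 1559 cpm. All 5 rod markers and all 5 bipolar markers were higher in mature retina, and none was at 0 in every library. Their part in the rise of Slc17a7 was not tested.

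Slc17a6 (VGLUT2) followed a shallow wave rather than a rise. It measured 46.8, 48.6 and 52.1 cpm at E14 and 45.8, 46.4 and 49.8 cpm at E17, which overlap. At P1 it was at its lowest, at 24.2, 29.3, 36.4 and 37.4 cpm, all below the E17 libraries. The P6 libraries, at 43.2, 43.6 and 43.9 cpm, all lay above those of P1, and the P15 libraries, at 57.3, 65.1, 66.9 and 67.1 cpm, above those of P6. At P28 it measured 47.1, 56.8, 56.9 and 56.9 cpm and at P60 29.1 to 54.0 cpm with a median of 39.9 cpm, so that P60 overlapped P1, P6, P28 and both embryonic ages. The fall to P1 was 0.58 on the log2 scale (log2 fold change -0.58, SE 0.148, adjusted p = 0.0094), the rise to P6 was 0.46 (SE 0.148, adjusted p = 0.013) and the rise to P15 was 0.54 (SE 0.148, adjusted p = 0.0047 by limma).

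Of these calls on Slc17a6, the fall to P1 was lost without E17 replicate 1 or P1 replicate 2 (adjusted p 0.055 and 0.056) and the rise to P6 without P1 replicate 2 (0.074). In edgeR on recovered reads, mature over embryonic Slc17a6 reached a log2 fold change of 0.21 and was called (adjusted p = 0.035). The summed level of 6 ganglion cell markers (Rbpms, Pou4f1, Pou4f2, Sncg, Nefl and Thy1) was 711 to 782 cpm at E17, 404 to 464 cpm at P1, 334 to 384 cpm at P6 and 525 to 686 cpm at P15. It was thus lower at P1 than at E17, as Slc17a6 was, but lower still at P6, when Slc17a6 was higher than at P1. In mature against embryonic retina 2 of them were higher and 4 lower. Their part in the course of Slc17a6 was not tested.

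Slc17a8 (VGLUT3) was near the detection limit through P1 and rose late. Its levels were 0.700 to 0.844 cpm at E14, 0.794 to 1.02 cpm at E17 and 0.491 to 1.24 cpm at P1, each library holding 4 to 11 reads. They reached 2.21, 3.46 and 3.96 cpm at P6 (16 to 32 reads), and 18.0, 21.1, 25.4 and 26.3 cpm at P15, without overlap at either step. At P28 the range was 19.7 to 23.7 cpm, within that of P15, and at P60 14.4 to 16.8 cpm with a median of 15.3 cpm. Unlike Slc17a7, which took its largest step from P1 to P6, Slc17a8 had its largest step from P6 to P15, 7.09-fold (log2 fold change 2.50, SE 0.17, adjusted p = 3.2e-13). The step from P1 to P6 was 1.19 (adjusted p = 8.4e-07, limma) on the log2(cpm + 1) scale and 1.97 in edgeR on recovered reads. Mature retina was 24.2-fold above embryonic retina (log2 fold change 3.50, SE 0.109, adjusted p = 1.7e-23).

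The make-up of the vesicular family was compared per length, as cpm per kb of exonic length. Slc17a6 held 95.7% ± 1.22 (SD, n = 3) of the summed cpm per kb of the 3 genes at E14, 93.4% ± 0.564 at E17 (n = 3) and 77.1% ± 3.15 at P1 (n = 4). By P6 its share was 23.2% ± 2.02 (n = 3), and at P60 it was 5.25% ± 2.05 (n = 6). Slc17a7 went the other way, from 2.65% ± 1.03 at E14 to 20.5% ± 3.36 at P1, 74.9% ± 1.81 at P6 and 92.5% ± 2.50 at P60. In every library up to P1 Slc17a6 was the larger share (72.7% or more) and in every library from P6 on Slc17a7 was (73.7% or more). Slc17a8 held between 1.19% and 4.93% in any library. The summed level of the 3 genes was 9.52 ± 0.399 cpm per kb at E14, 7.63 ± 1.34 at P1, 35.0 ± 3.48 at P6 and 150 ± 23.7 at P60. The level of Slc17a6 itself was 9.11 cpm per kb at E14 and 7.47 at P60, against 0.249 and 139 for Slc17a7.

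**Figure D2:**
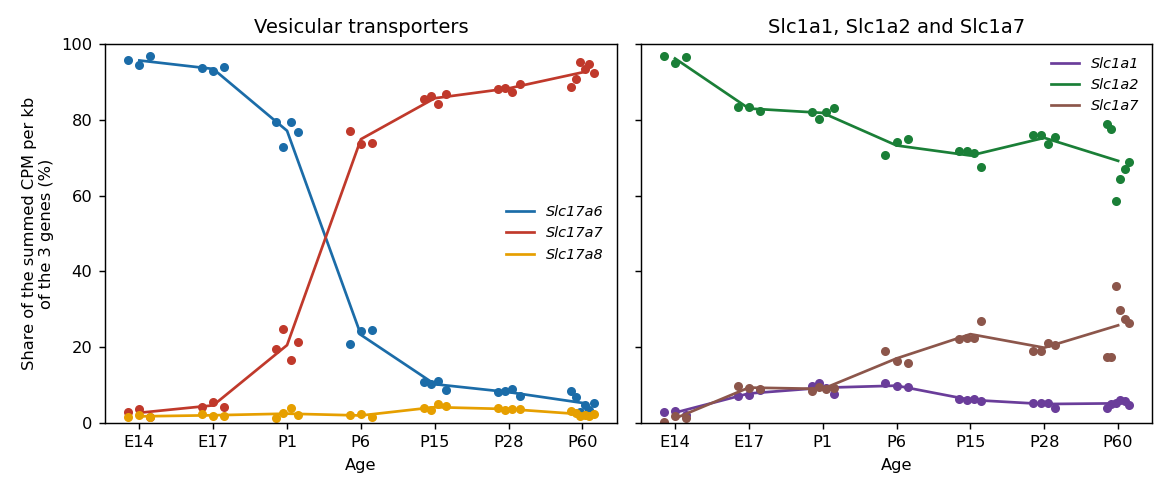
Share of each gene in the summed cpm per kb of its set of 3 genes (%, linear axis from 0 to 100) against age for the vesicular transporters and for 3 uptake transporters, with points for libraries and lines through the means. The lines of Slc17a6 and Slc17a7 cross between P1 and P6, while Slc1a2 keeps more than 58% of the sum of Slc1a1, Slc1a2 and Slc1a7 in every library.

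Ratios within a library gave the same order. They were taken as differences of log2(cpm + 1). The added 1 shrinks them where a gene is low, as Slc17a7 and Slc17a8 were in embryonic libraries. The log2 ratio of Slc17a7 to Slc17a6 was -4.15 ± 0.408 (SD) in the 6 embryonic and 3.65 ± 0.641 in the 14 mature libraries, a difference of 7.80 (exact two-sided permutation test, p = 5.2e-05, the smallest this design can give, adjusted p = 6.2e-05 over 6 pairs). Slc17a8 rose relative to Slc17a6 by 3.41 and fell relative to Slc17a7 by 4.39, both with the same exact permutation p of 5.2e-05, and the mature and embryonic libraries did not overlap in any of these ratios.

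Slc1a2 (EAAT2) had the highest level of Slc1a1, Slc1a2 and Slc1a7 at every age. It measured 108, 116 and 121 cpm at E14, 209.9, 212 and 218 cpm at E17, and 367, 369, 396 and 399.7 cpm at P1. At P6 it had reached 931, 1007 and 1021 cpm. No library of 1 of these ages overlapped the next, and the steps were 0.89, 0.84 and 1.36 on the log2 scale (adjusted p = 4.1e-06, 6.3e-06 and 4.2e-11 by limma). The level then held, at 907 to 969 cpm at P15 and 876 to 966 cpm at P28, and spread at P60 to 542 to 992 cpm with a median of 709 cpm. The P15 to P6 difference was -0.06 (SE 0.119, adjusted p = 0.75), and its sign turned to 0.01 under median-of-ratios scaling and in edgeR. Mature retina held 5.31-fold more than embryonic retina (log2 fold change 2.45, SE 0.0764, adjusted p = 1.6e-23). The steps of Slc1a2 that passed as increases thus ended at P6, whereas that of Slc17a7 from P6 to P15 also passed.

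Slc1a7 (EAAT5) went from the edge of detection to the second highest level of the same 3 genes. At E14 it measured 0.421 and 0.527 cpm in 2 libraries, from 4 and 5 reads, and had 1 read in the other. The E17 libraries, at 6.00, 6.11 and 6.24 cpm (59 to 68 reads), and the P1 libraries, at 10.3, 10.3, 11.0 and 11.2 cpm, were close together within each age and did not overlap between ages. At P6 the levels were 54.6, 56.9 and 63.9 cpm, at P15 74.3 to 91.8 cpm, at P28 60.5 to 66.0 cpm and at P60 53.4 to 85.7 cpm with a median of 71.3 cpm. The E17 mean was 17.5-fold that of E14. This step was 2.41 on the log2(cpm + 1) scale (SE 0.14, adjusted p = 2.1e-14) but 4.06 in edgeR on recovered reads and 3.95 with a pseudocount of 0.1. From P1 to P6 it rose 5.46-fold (log2 fold change 2.34, SE 0.131, adjusted p = 8.5e-16). The rise to P15 was 0.45 (adjusted p = 0.0075) and was not called with a pseudocount of 0.1 (adjusted p = 0.11 by limma). Mature retina was 21.7-fold above embryonic retina (4.52, SE 0.0839, adjusted p = 1.4e-29).

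Slc1a1 (EAAT3) was the only one of the 6 genes that peaked at P6 and declined at the step after it by limma. It measured 1.68, 2.10 and 2.22 cpm at E14, 11.1, 11.9 and 14.6 cpm at E17 and 23.3, 25.9, 29.1 and 30.4 cpm at P1, without overlap. The P6 libraries stood at 80.5, 82.0 and 86.3 cpm, above every library of every other age. The P15 libraries, at 48.1, 50.8, 51.5 and 53.8 cpm, were all lower, and the levels were 29.4, 40.4, 41.3 and 42.5 cpm at P28 and 30.9 to 38.2 cpm at P60 with a median of 33.7 cpm. It rose by 2.17, 1.06 and 1.58 on the log2 scale over the first 3 steps (adjusted p = 7.3e-14, 2e-07 and 3.3e-12) and then fell by 0.69 to P15 (SE 0.124, adjusted p = 4.7e-05 by limma). Mature retina still held 5.66-fold more than embryonic retina (2.70, SE 0.0794, adjusted p = 3.1e-24).

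A further fall of Slc1a1 from P15 to P28 (log2 fold change -0.42, SE 0.114, adjusted p = 0.042) depended on single libraries. It was lost without any 1 of the 4 P15 libraries (adjusted p 0.055 to 0.13) and without P28 replicate 1, 3 or 4 (0.064, 0.051 and 0.24), and also with a pseudocount of 0.1 (0.062) or median-of-ratios scaling (0.060). The overlapping gene 4430402I18Rik followed a like course, from 1.52 cpm at E14 to 38.0 cpm at P6 and 14.98 cpm at P60, with Slc1a1 at 1.33 times its level at E14 and 1.81 to 2.41 times at the other ages.

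Among Slc1a1, Slc1a2 and Slc1a7, Slc1a2 held 96.2% ± 0.955 (SD, n = 3) of the summed cpm per kb of the 3 genes at E14, 81.8% ± 1.27 at P1 (n = 4) and 69.1% ± 7.78 at P60 (n = 6). Over the same ages Slc1a7 went from 1.15% ± 0.757 to 8.95% ± 0.433 and 25.7% ± 7.31. Slc1a1 had its largest share at P6, 9.80% ± 0.540 (n = 3). The shares depend on the exonic lengths used. In cpm, those at P60 were 87.4% ± 3.65 for Slc1a2 and 8.51% ± 2.99 for Slc1a7 (n = 6). The summed level of the 3 genes was 9.11 ± 0.436 cpm per kb at E14 and 102 ± 1.88 at P6, and then did not exceed 104 cpm per kb in any library. It was 102 ± 1.46 at P15, 93.6 ± 3.73 at P28 and 81.2 ± 10.4 at P60 (70.5 to 95.9 cpm per kb).

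These shares leave out EAAT1 (Slc1a3) and EAAT4 (Slc1a6), and over all 5 EAAT genes the make-up at early ages was different. Slc1a3 then held the largest share at E14, 56.9% ± 0.982 (SD, n = 3) against 33.7% ± 0.492 for Slc1a2, with levels of 14.8 ± 0.658 and 8.76 ± 0.489 cpm per kb, and was also higher at E17, at 18.3 against 16.3 cpm per kb, without overlap. From P1 on Slc1a2 was above Slc1a3 in every library, at 29.2 against 22.8 cpm per kb at P1 and 56.8 against 12.2 at P60, when it held 59.6% ± 8.19 (n = 6) of the 5 genes. Per length, Slc1a7 lay below Slc1a3 up to P6 and above it from P15 on, without overlap at P15, P28 or P60. The means were 23.9 against 14.1 cpm per kb at P15 and 20.3 against 12.2 at P60. These orders depend on the exonic lengths used. In cpm, Slc1a3 had higher means than Slc1a7 at P15 (120.5 against 80.4), P28 (113 against 62.3) and P60 (104 against 68.2). The mean of Slc1a2 in cpm was already above that of Slc1a3 at E17 (214 against 156). Slc1a6 held 12.1% ± 1.02 (n = 3) of the 5 genes at E17 and under 1.3% in every library from P15 on.

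Relative to Slc1a1 and Slc1a2 within libraries, Slc1a7 was higher in mature than embryonic retina by 1.84 and 2.09 on the log2(cpm + 1) scale (exact two-sided permutation test, p = 5.2e-05 each, adjusted p = 6.2e-05). This scale shrinks ratios where a gene is low, as Slc1a1 and Slc1a7 were at E14. On it the ratio of Slc1a2 to Slc1a1 was 4.63 ± 0.723 in embryonic and 4.38 ± 0.277 in mature libraries, a difference of -0.25 that did not pass the exact permutation test (p = 0.26). That ratio was 5.28 at E14 and 3.99 at E17, so the embryonic libraries were spread over a wide range.

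**Figure D3:**
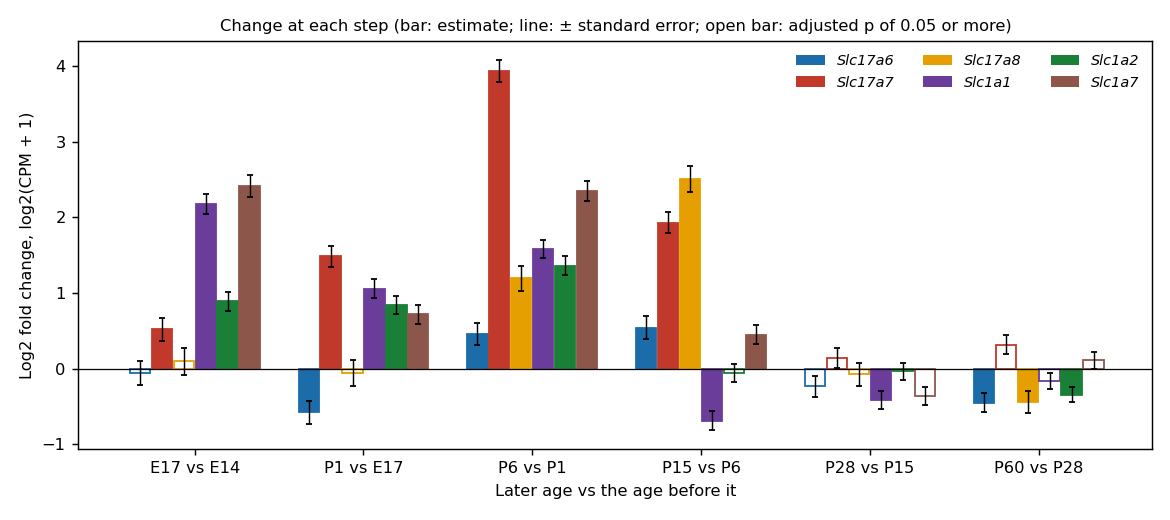
Log2 fold change on the log2(cpm + 1) scale (linear axis through 0) of each transporter gene for each age against the one before, with bars for estimates and lines for standard errors. Filled bars have an adjusted p under 0.05. The 6 bars of P6 against P1 are all filled and positive, from 0.46 for Slc17a6 to 3.94 for Slc17a7.

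By step, 4 genes were higher and 0 lower at E17 than at E14, when 7.56% of all features were higher and 3.02% lower. From E17 to P1, 4 were higher and 1, Slc17a6, lower (5.77% and 3.43% of all features). From P1 to P6 all 6 were higher and 0 lower (18% and 20.4%). From P6 to P15, 4 were higher and 1, Slc1a1, lower (14.4% and 19%). From P15 to P28, 0 were higher and 1, again Slc1a1, lower (1.14% and 1.58%). From P28 to P60, 0 were higher and 3 lower, Slc17a6, Slc17a8 and Slc1a2 (4.8% and 8.11%).

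The P60 step rested on libraries that differed among themselves. Slc17a6 had a log2 fold change of -0.45 (SE 0.125, adjusted p = 0.021), Slc17a8 of -0.44 (SE 0.144, adjusted p = 0.042) and Slc1a2 of -0.34 (SE 0.101, adjusted p = 0.027 by limma). The P60 libraries of Slc17a8, at 14.4 to 16.8 cpm, all lay below those of P28, whereas those of Slc17a6 and Slc1a2 overlapped P28. None of the 3 calls held in a fit of P28 and P60 alone (adjusted p 0.21 for Slc17a6, 0.15 for Slc17a8 and 0.25 for Slc1a2). The call on Slc17a6 was lost without P28 replicate 1, 2 or 3 or P60 replicate 3 or 5 (adjusted p 0.051 to 0.066), that on Slc17a8 without any 1 of the P28 libraries or P60 replicate 3, 4, 5 or 6 (0.052 to 0.13), and that on Slc1a2 without P28 replicate 1, 2 or 3 or P60 replicate 3, 4 or 5 (0.053 to 0.080). Slc17a7, at 0.32 (SE 0.121, adjusted p = 0.077), was called without P60 replicate 1 or 2 (0.014 and 0.032) and in edgeR (0.024). Over all features, 37.2% of the calls at this step were higher as deposited, 51.6% under median-of-ratios scaling and 60.8% in edgeR.

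In P60 replicates 1 and 2, Slc1a2 measured 992 and 926 cpm, against 876 to 966 cpm at P28, and Slc17a7 569.6 and 639 cpm, against 555 to 623 cpm. In replicates 3 to 6, Slc1a2 measured 542, 600.2, 688 and 729.9 cpm, below every P28 library, and Slc17a7 935, 786, 862 and 712 cpm, above every P28 library. Slc17a6 was 54.0 and 47.5 cpm in replicates 1 and 2 and 29.1, 38.6, 31.6 and 41.3 cpm in replicates 3 to 6, and Slc1a7 was 55.7 and 53.4 cpm and then 85.7, 70.9, 71.7 and 71.8 cpm. Slc17a8 did not follow this split, at 16.8 and 15.2 cpm and then 15.3, 14.4, 14.97 and 16.2 cpm. The rod markers summed to 11679 and 10736 cpm in replicates 1 and 2 and to 11503 to 13026 cpm in replicates 3 to 6, which overlap, against 10232 to 11695 cpm at P28. Cone markers summed to 528 and 527 cpm and to 586 to 671 cpm, against 479 to 516 cpm at P28, and the 4 horizontal cell markers to 82.2 and 83.5 cpm and to 66.0 to 72.0 cpm, against 86.1 to 103 cpm. Bipolar cell markers summed to 1379 and 1280 cpm in replicates 1 and 2 and to 1511 to 1701 cpm in replicates 3 to 6, against 1367 to 1433 cpm at P28. Müller glia markers summed to 1048 and 1045 cpm and to 1172 to 1235 cpm, against 1073 to 1137 cpm, and progenitor markers to 19.3 and 22.3 cpm and to 29.6 to 33.5 cpm, against 19.3 to 24.4 cpm. Amacrine cell markers were close, at 525.4 and 519.6 cpm and then 525.7 to 541.9 cpm, against 544 to 614 cpm. Ganglion cell markers summed to 447 and 422 cpm and to 451 to 512 cpm, against 489.5 to 505 cpm at P28. Of these 6 markers, 0 were called higher and 2 lower at P60 than at P28, against 4.8% and 8.11% of all features. No label sets replicates 1 and 2 apart, and the split was taken from these same libraries, so it tests nothing. The sums of the cone, ganglion, horizontal, bipolar, amacrine, Müller glia, progenitor and lens lists did not overlap between replicates 1 and 2 and replicates 3 to 6. The amacrine sums were nearly equal. Those of the rod, retinal pigment epithelium, blood, skeletal muscle, and astrocyte and optic nerve glia lists overlapped. How many of all features split in this way was not counted. Median-of-ratios size factors were 0.993 and 0.970 and then 0.853 to 0.967. The part of these differences in the P60 results was not tested.

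**Figure D4:**
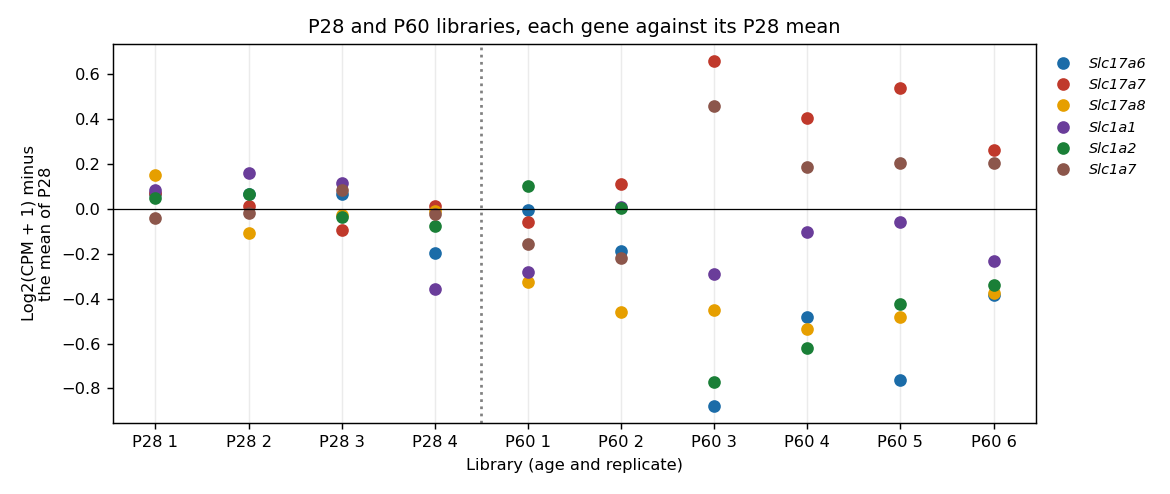
Log2(cpm + 1) of each transporter gene in the P28 and P60 libraries minus the mean of the gene at P28 (linear axis through 0), 1 column per library and 1 color per gene. Slc17a7 and Slc1a7 are above 0 and Slc1a2, Slc17a6 and Slc17a8 below 0 in each of P60 replicates 3 to 6.

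The order of the 6 levels, in cpm per kb, changed with age. At E14 Slc17a6 (9.11 ± 0.496, SD, n = 3) and Slc1a2 (8.76 ± 0.489) were at the top with overlapping libraries, and the other 4 genes had means of 0.2495 or less. At P1 Slc1a2 led with 29.2 ± 1.32 (n = 4), followed by Slc17a6 at 5.90 ± 1.16, Slc1a1 at 3.29 ± 0.386 and Slc1a7 at 3.18 ± 0.142, of which the last pair overlapped. At P6 Slc1a2 (75.1 ± 3.67) was still ahead of Slc17a7 (26.2 ± 3.27). From P15 on Slc17a7 led, at 100.1 ± 4.65 (n = 4), 110.1 ± 5.24 (n = 4) and 139 ± 25.5 (n = 6) cpm per kb, followed at all 3 ages by Slc1a2 and then Slc1a7, and no overlap between them. This lead depends on the exonic lengths used, 5.39 kb for Slc17a7 and 13.13 kb for Slc1a2. In cpm, the means of Slc1a2 and Slc17a7 were 947 and 540 at P15, 925 and 594 at P28 and 746 and 751 at P60. Slc17a8 was last at each age from E17 on, its libraries overlapping those of Slc1a1 at P28.

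The features whose course over the 27 libraries was most like that of each gene, by Pearson's r of log2(cpm + 1) among 13119 features with a mean of at least 5 cpm, are given as a description, since all share the same libraries and ages. For Slc17a7 they included Grk1, a photoreceptor kinase (r = 0.9985), and Pde6g, the inhibitory subunit of rod phosphodiesterase (0.9975). For Slc1a2 they included Impg2, a matrix proteoglycan (0.990), and Crx, a photoreceptor transcription factor (0.988). Slc1a7 was closest to Ppef2 (0.993), Atp1b2 (0.993) and Rasgrf2 (0.992), and Slc17a8 to Lrtm1 (0.993), Fgf1 (0.990) and Tnfsf13os (0.988). Slc1a1 was closest to the gene that overlaps it, 4430402I18Rik (0.991), and then to the protocadherin genes Pcdhb18 (0.981) and Pcdh10 (0.976). Slc17a6 had no such close match, the highest being Hmgcll1 (0.883), Ccdc85a (0.874) and Gm1653 (0.865). Among the 6 genes themselves r was highest for Slc1a2 with Slc1a7 (0.960) and lowest for Slc17a6 with Slc1a1 (0.0245).

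Of the 10 other members of both families, 4 were higher, 4 lower and 2 not called in mature against embryonic retina, shares near those of all features (35% higher and 40.4% lower). Those higher were Slc17a1, Slc17a2, Slc17a3 and Slc17a4, organic anion and phosphate transporters that lie side by side on chromosome 13 between 23806993 and 23915009. They had 0 or 1 read in each embryonic library and means of 13.4, 13.5, 47.8 and 59.2 cpm in mature retina, at least 44.2-, 44.5-, 158- and 196-fold higher than the level of 3 reads per library (0.302 cpm). Their largest step was from P6 to P15, as for Slc17a8 (log2 fold changes of 2.87 to 4.42), and they rose again from P15 to P28, when Slc17a8 was not called. Those lower were Slc1a3 (EAAT1, -0.32, adjusted p = 5.4e-07), Slc1a6 (EAAT4, -1.51, adjusted p = 3.8e-10 by limma), and Slc1a4 (-1.74) and Slc1a5 (-1.61), which encode the neutral amino acid exchangers ASCT1 and ASCT2. Slc1a3 had means of 126 cpm at E14, 196 cpm at P6 and 104 cpm at P60, so that of the 5 EAAT genes the 3 described above were higher in mature retina and the other 2 lower. The directions of all 8 called genes were the same under median-of-ratios scaling and in edgeR. Slc17a5 and Slc17a9 were not called (adjusted p 0.98 and 0.15).

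**Figure D5:**
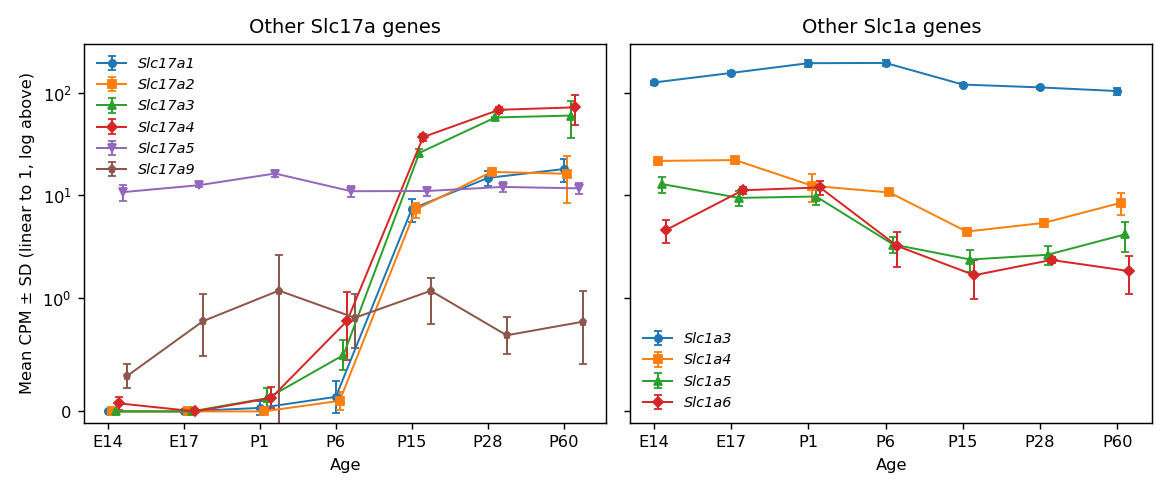
Mean cpm ± SD of the 10 other genes of both families against age, on an axis that is linear up to 1 cpm and logarithmic above. The means of Slc17a1 to Slc17a4 lie below 1 cpm up to P6 and between 7.26 and 72.2 cpm from P15 on, while Slc1a4 to Slc1a6 lie lower from P6 on than at E17.

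Of 13 tested genes that supply, recycle or break down glutamate, 5 were higher, 6 lower and 2 not called in mature retina, again near the shares over all features (35% and 40.4%), and 6 were higher and 5 lower under median-of-ratios scaling and in edgeR. Glul, the glutamine synthetase of Müller glia, had means of 135.5 cpm at E14, 160.6 cpm at E17 and 151.7 cpm at P1. Its mean was lower at P6, at 76.1 cpm, and reached 531 cpm at P15 (mature against embryonic log2 fold change 2.01, SE 0.0492). Slc38a3, a glutamine transporter, rose by 3.95, while Slc38a2, another glutamine transporter, fell by 1.61 (adjusted p = 3.8e-27 and 1.8e-22 by limma). Of 12 vesicular proton pump subunit genes, 9 were higher, 1 lower (Atp6v1g1, -0.35) and 2 not called, against the same 35% and 40.4% of all features. From P1 to P6, the step at which all 6 glutamate transporter genes rose, 9 of the pump genes rose and 0 fell, against 18% and 20.4% of all features. Of 12 transporter genes for other transmitters, 9 were higher, 2 lower (Slc18a2, -1.49, and Slc6a4, -1.16) and 1 not called, against 35% and 40.4% of all features. The vesicular GABA and glycine transporter gene Slc32a1 had means of 1.90 cpm at E14, 15.7 cpm at P1, 26.0 cpm at P6 and 37.8 cpm at P15.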

How the data were processed

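Total RNA of mouse retina was sequenced as single-end reads from SMARTer total RNA libraries. The authors aligned reads with STAR to mm10 (GRCm38, per the labels) and deposited 1 table of CPM (reads of a feature scaled to the reads of its library) for 38168 features. Filters, annotation and strand of the counting are not given in the sources used here. Within a library, the values came as multiples of what 1 read is worth (100% within 0.1 of a whole number), which gave the reads used for depth and for edgeR. The step of E14 replicate 1 lies too near a round decimal to be judged automatically, so edgeR was also run without that library, an alternative chosen after seeing the data.

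Ages were taken from the labels. The deposited CPM were used as log2(CPM + 1). Features that reached 1 CPM in 3 libraries or more entered 1 limma 3.58.1 model of age with a mean-variance trend (R 4.3.3) over the 27 libraries. Tests were two-sided and p-values adjusted by Benjamini-Hochberg across the 31760 features. A feature was called at an adjusted p under 0.05. Ratios of genes within a library, taken as differences of log2(CPM + 1), were compared by exact permutation tests (scipy 1.17.1). Exonic lengths and positions are from GENCODE on GRCm38. Shares over all 5 EAAT genes were added after the data were seen. Alternatives were a pseudocount of 0.1, no filter, a mean of at least 10 CPM, median-of-ratios scaling, edgeR 4.0.16 quasi-likelihood tests on recovered reads, a replicate block, the compared ages only, summed entries of a symbol and leaving out each library. All replicate pairs of an age differed by more than sampling noise (chi-square per degree of freedom at least 1.72). The tests were tested on simulated data.

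The genes described are the 6 transporters, the members of the 4 gene lists with the largest means or an exceptional direction, and the 3 features most like each transporter. The members and lists were chosen with earlier results of these data known. Results for some genes are counted in totals but not reported here, and 2 markers were left out of the summed marker levels after the data were seen.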

Additional observations from a re-analysis of the deposited data

Results flagged for a closer look

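In 24 groups of 4 to 6 libraries, 3 had 1 library far from the others by Dixon's criterion, which chance meets in about 1 of 20 groups. Slc17a6 at P28 was 47.1 cpm in replicate 4 against 56.8 to 56.9 cpm in the other 3 libraries. In the same library Slc1a1 was 29.4 cpm against 40.4 to 42.5 cpm, and without this library the fall of Slc1a1 from P15 to P28 was not called (log2 fold change -0.30, adjusted p = 0.24, limma). Slc1a7 at P28 was highest in replicate 3, at 66.0 cpm against 60.5 to 61.4 cpm.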

How the results depend on the processing

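Of 738 results of single transporter genes under alternatives, 681 kept their direction and their side of the threshold, 49 lost a call, 5 gained one and 3, none of them called, turned in sign. The 3 were Slc17a8 at P1 against E17 without P1 replicate 1 (0.0396, with -0.157 to 0.0396 over libraries left out) and Slc1a2 at P15 against P6 with median-of-ratios scaling (0.0127) and in edgeR (0.0086). Mature against embryonic calls on the 5 genes other than Slc17a6 held under every alternative run. Fits of the compared ages alone called 6605 features at E17 against E14 (3359 in the fit of all ages), 4529 at P1 (2924), 1331 at P28 (864) and 7 at P60 (4100), and 2 and 0 of the 6 transporter genes at P28 and P60 (1 and 3). At P28 against P15, 0 were called with a pseudocount of 0.1 or median-of-ratios scaling. A filter at a mean of 10 cpm left fewer features to test, with 11370 called in mature against embryonic retina (23951), 7398 at P6 (12178) and 6879 at P15 (10610).

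Leaving out 1 library gave 0 to 1 transporter genes and 498 to 690 features called at P28 against P15, and 0 to 4 genes and 1513 to 7516 features at P60 against P28, the most features without P60 replicate 2 and the fewest without P28 replicate 1, and the 4 genes without P60 replicate 1 or 2. The ratio of Slc1a2 to Slc1a1 ranged from -0.42 to -0.08. The deviations of same-numbered libraries of different ages were weakly correlated (3 of 69 correlations above 0.1, range -0.129 to 0.167). The 3 were all between P15 and P60 (0.167, 0.109 and 0.13). Such correlations cannot show whether same-numbered libraries were handled together. With a replicate block 1029 features and 0 transporter genes were called at P60 against P28, with adjusted p of 0.083 for Slc17a6, 0.11 for Slc17a8 and 0.09 for Slc1a2, and no other call on these genes changed. The cause of these shifts was not tested. Depth limits Slc17a8 up to P1 and Slc1a7 at E14, where libraries held 1 to 11 reads.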
